A study of Rattus norvegicus with 36 samples.

Results

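Srxn1, Nqo1, Gclm, Gclc and Txnrd1 are target genes of the transcription factor Nrf2, and their transcripts were followed here in kidneys of rats with ischemic, toxic or no renal injury. They were found by gene symbol in the array annotation, which gave 7 probes for the 5 genes, out of 9911 probes and 6444 gene symbols on the array. The probes were AI172302 for Srxn1, NM_017000 for Nqo1, L22191 and NM_017305 for Gclm, J05181 and AA892770 for Gclc, and AF220760 for Txnrd1. Which exon or end of the transcript each probe reads is not given in the sources used here.

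Kidney RNA of 31 male rats aged 6 to 8 weeks was hybridised to 36 CodeLink arrays, which are 1-colour oligonucleotide arrays. RNA was taken from a portion of each kidney, so every value is an average over all its cells, and the strain is not given in the sources used here. Renal ischemia was bilateral and lasted 40 min, with reperfusion of 2 h in 4 rats and of 8 h in 3 rats. Another 3 rats had the same ischemia with 50 µg of αMSH, a melanocortin peptide hormone, given i.v. to each rat, and were studied at 2 h. Mercuric chloride (HgCl2), a nephrotoxic metal salt, was injected s.c. at 4 mg/kg and kidneys were taken at 2 h (3 rats) or 8 h (3 rats). Cisplatin, a platinum drug with renal toxicity, was injected i.p. at 20 mg/kg and studied at 2 h (3 rats). Volume depletion (4 rats) consisted of i.p. furosemide at 20 mg/kg, given at 0 and 8 h, and a sodium-deficient diet, with harvest at 24 h. Sham rats (3) had sham surgery of 40 min and were studied at 8 h, and 5 normal rats were untreated.

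Nrf2, encoded by Nfe2l2, is held at a low level by Keap1, which marks it for degradation. Oxidants and electrophiles modify cysteines of Keap1, after which Nrf2 accumulates and, with a small Maf protein, binds antioxidant response elements near its target genes. Srxn1 restores over-oxidised peroxiredoxins, Txnrd1 reduces thioredoxin with NADPH, and Nqo1 reduces quinones. Gclc is the catalytic and Gclm the modifier subunit of glutamate-cysteine ligase, the rate-limiting enzyme of glutathione synthesis, a pathway on which the proximal tubule relies heavily. Mercury binds thiol groups, glutathione among them, and accumulates in the proximal tubule.

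In the rat assembly GRCr8, per RefSeq, Srxn1 lies on chromosome 3 (161064812 to 161070372), Nqo1 on chromosome 19 (52205374 to 52220267), Gclm on chromosome 2 (213032135 to 213052192), Gclc on chromosome 8 (87510251 to 87548896) and Txnrd1 on chromosome 7 (22717620 to 22802553). The RefSeq promoter windows, of 300 bases each with 250 before and 50 after the start site, were searched on both strands for TGACNNNGC, the core of the antioxidant response element, and for TGANTCA, the AP-1 element, with which it can overlap. All 5 genes matched the promoter table, Txnrd1 with 2 start sites. The core was in 12.1% of all 33469 windows and the AP-1 element in 7.33%. The Srxn1 window (chr3:161064562-161064861, plus strand) held TGAGTCA at positions -62 and -5 from the start. The Gclm window (chr2:213031885-213032184, plus strand) held 1 match to the core, on the opposite strand, at -172. Of the 2 Txnrd1 windows, 1 (chr7:22755855-22756154, minus strand) held a match to the core, also on the opposite strand, at -78. These 3 windows are shown because they hold a match, with the match in capitals. Neither motif was found in the windows of Nqo1 and Gclc or in the other Txnrd1 window. Sequence outside the windows was not searched, so elements further from the start would be missed. Both Txnrd1 windows lie within the gene, short of its upstream end at 22802553.
Srxn1: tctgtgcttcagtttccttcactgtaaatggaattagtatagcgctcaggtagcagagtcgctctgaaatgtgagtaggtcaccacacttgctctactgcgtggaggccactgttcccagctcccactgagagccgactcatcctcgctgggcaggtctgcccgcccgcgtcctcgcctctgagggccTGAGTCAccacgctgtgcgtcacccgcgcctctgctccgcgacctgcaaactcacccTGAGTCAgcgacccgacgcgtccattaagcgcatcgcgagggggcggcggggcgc
Gclm: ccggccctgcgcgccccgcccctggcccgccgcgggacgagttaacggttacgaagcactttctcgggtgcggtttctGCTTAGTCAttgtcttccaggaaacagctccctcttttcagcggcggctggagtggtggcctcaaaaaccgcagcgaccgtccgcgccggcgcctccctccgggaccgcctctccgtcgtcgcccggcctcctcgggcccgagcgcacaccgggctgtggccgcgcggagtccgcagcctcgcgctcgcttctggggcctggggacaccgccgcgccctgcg
Txnrd1: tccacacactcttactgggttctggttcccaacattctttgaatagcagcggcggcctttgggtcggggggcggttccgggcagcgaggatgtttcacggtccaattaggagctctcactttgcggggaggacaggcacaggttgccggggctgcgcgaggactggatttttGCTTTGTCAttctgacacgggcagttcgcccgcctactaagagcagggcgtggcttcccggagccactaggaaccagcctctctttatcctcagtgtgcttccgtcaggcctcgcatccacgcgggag

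Levels below are intensities relative to the array median, which is set to 1, and differences are on the log2 scale. The arrays came in 2 lots, which no label ties to single arrays and which were assigned from the numbering of the normal rats and the array profiles. Each group was set against the normal rats of its lot, 3 for the ischemia, HgCl2 2 h and volume depletion groups and 2 for the HgCl2 8 h, cisplatin and sham groups. Groups of a lot therefore share their normal rats. A change was called where its adjusted p from limma, over all probes of the comparison, was under 0.05. All 7 probes were above the intensity floor in every rat in which they were measured. They were measured in all 31 rats, except NM_017305 of Gclm, which was measured in 24 rats and in 1 rat of the group given αMSH, where it was not tested.

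The array of ischemia 8 h rat 3 differed from the others, with a median correlation to its own group of 0.926, the lowest of all 36 arrays, and 1.65% of its probes at the floor, against 10.7% to 12.2% on the other 4 arrays of that group. In the deposited table the column of sham rat 3 was shifted by 2 lines against the probes, and it was moved back. Kidney identity was clear in the normal rats, where the proximal tubule receptor Lrp2 was at the 99.3 percentile of all probes. The liver gene Alb and the adrenal gene Cyp11b1 were at the floor in all 5 normal rats. Other genes of these lists were not: the liver gene Apoa1 was at the floor in 1 rat and the fat gene Plin1 in 4. The adrenal gene Cyp17a1 (68.1 percentile) and the fat genes Adipoq (54) and Fabp4 (49.1) were at the floor in none. A share of neighbouring tissue in the samples was not tested.

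**Figure D1:**
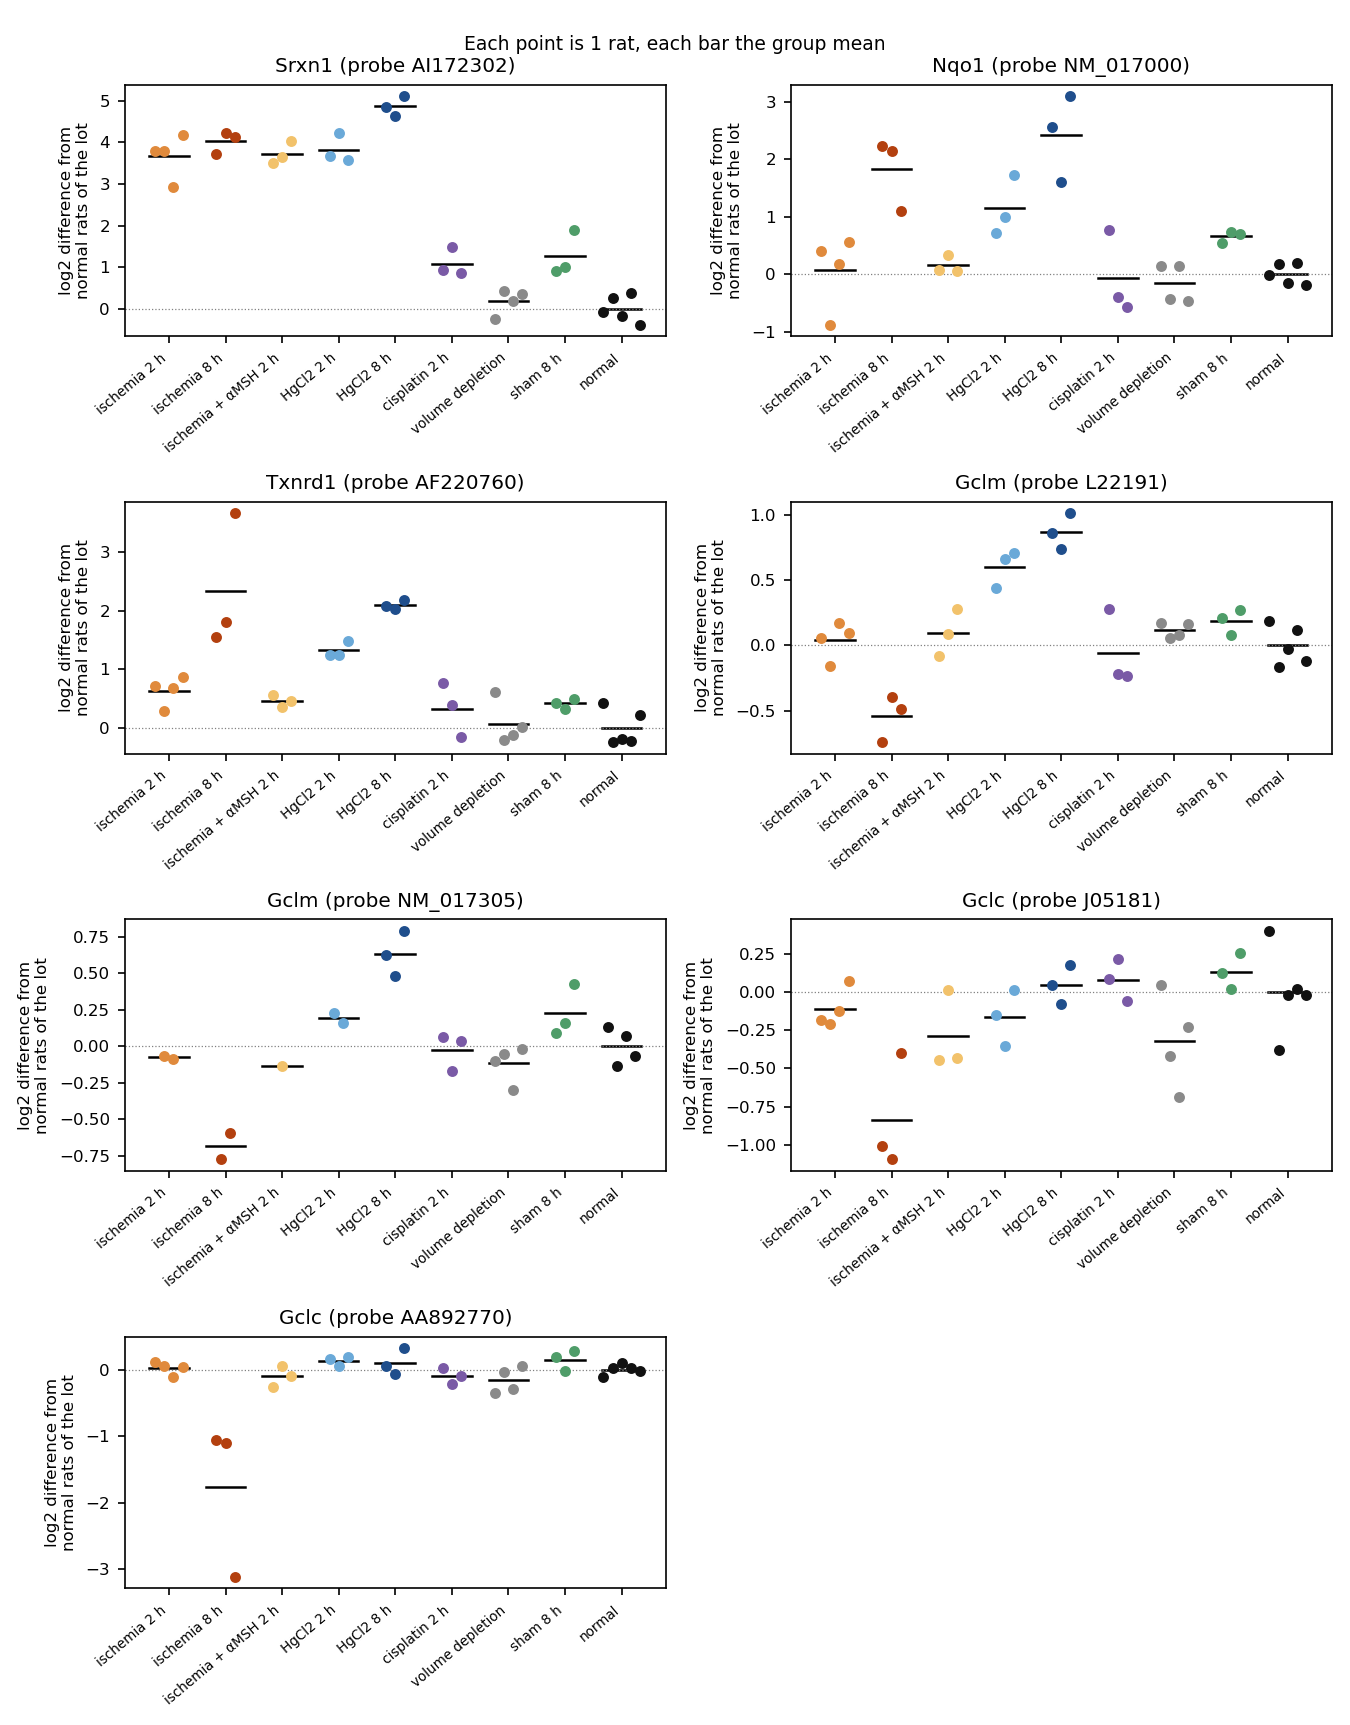
Log2 difference of each rat from the normal rats of its lot, for the 7 probes, with 1 panel per probe and groups along the horizontal axis. Points are rats and bars are group means. Srxn1 was high in the 5 groups with ischemia or HgCl2, Nqo1 and Txnrd1 were highest at 8 h, and Gclm and Gclc were lowest 8 h after ischemia.

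Srxn1 rose more than the other 4 genes in each group in which it was called. It rose in all 5 groups with ischemia or HgCl2, by 12.7-fold to 29.2-fold, and was not called in the cisplatin, volume depletion and sham groups. Its relative intensity 2 h after ischemia was 6.89, 6.9, 3.8 and 8.96 in the 4 rats, against 0.474, 0.592 and 0.44 in the 3 normal rats of the lot. Every ischemic rat was well above every normal rat. The difference was 3.67 ± 0.27 (log2, SE) with an adjusted p of 3.84e-10, and in this comparison 14.7% of all tested probes were called, 7.36% as higher. The value ranked 14 from the highest of 9468 tested probes.

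With αMSH, Srxn1 was at 5.62, 6.21 and 8.12 in ischemic kidneys at 2 h. These rats lay within the range of those given ischemia alone, and all were above the normal rats. The rise over normal was 3.72 ± 0.29 (adjusted p = 1.14e-09, with 13.3% of all probes called, 6.69% as higher). At 8 h after ischemia Srxn1 was at 6.55, 9.29 and 8.75, again apart from normal, with a rise of 4.02 ± 0.29 (adjusted p = 9.45e-11). In that comparison 41.7% of all probes were called, 20.8% as higher and 20.9% as lower, so a call there is common.

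HgCl2 gave Srxn1 levels of 6.38, 9.25 and 5.97 at 2 h, all above the normal rats. The rise was 3.83 ± 0.29 (adjusted p = 2.66e-09, with 7.68% of all probes called, 3.07% as higher) and ranked 5 from the highest of 9466 probes. At 8 h Srxn1 reached 12.4, 10.6 and 14.8, against 0.558 and 0.327 in the 2 normal rats of that lot. These 3 rats had the highest Srxn1 levels of the series and did not overlap with any other group. The rise was 4.87 ± 0.32 (adjusted p = 1.95e-10, with 10.9% of all probes called, 5.27% as higher), or 29.2-fold.

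In the cisplatin, volume depletion and sham groups Srxn1 did not pass the threshold, though it was higher than in normal rats in some. It was at 0.796, 0.859 and 1.59 in sham rats and at 0.809, 1.19 and 0.775 in cisplatin rats, against the same 2 normal rats. All 6 lay above both normal rats, and far below every rat with ischemia or HgCl2. The differences were 1.27 ± 0.32 in sham (adjusted p = 0.119, with 0.351% of all probes called) and 1.09 ± 0.32 in cisplatin (adjusted p = 0.217, with 0.574% called). Set against all 5 normal rats with no lot term, both were called (1.13, adjusted p = 0.019, in sham and 0.95, adjusted p = 0.0304, in cisplatin). In volume-depleted rats Srxn1 was at 0.42, 0.667, 0.565 and 0.639, which overlapped with normal, and differed by 0.18 ± 0.27 (adjusted p = 1, with 0.169% of all probes called).

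In the order of group means Srxn1 was highest at HgCl2 8 h (4.87 ± 0.24, SD, n = 3), followed by ischemia 8 h (4.02 ± 0.27), HgCl2 2 h (3.83 ± 0.34), ischemia with αMSH (3.72 ± 0.28) and ischemia 2 h (3.67 ± 0.52, n = 4). Ranges of the last 4 of these overlapped with their neighbours. A gap separated them from sham (1.27 ± 0.55) and cisplatin (1.09 ± 0.34), and another separated these from volume depletion (0.18 ± 0.30, n = 4) and normal (0 ± 0.31, n = 5).

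Txnrd1 rose in 3 of the 8 groups, those of HgCl2 at both times and of ischemia at 8 h. Its probe was dim, at the 34.7 percentile of all probes. Its level at HgCl2 8 h was 1.06, 1.03 and 1.14, against 0.216 and 0.295 in normal rats. The 3 treated rats were close together and well above normal, with a rise of 2.09 ± 0.38 (4.27-fold, adjusted p = 0.000473). At HgCl2 2 h it was at 0.723, 0.719 and 0.854, against 0.409, 0.259 and 0.268 in normal rats. The groups did not overlap, and the rise was 1.32 ± 0.34 (2.5-fold, adjusted p = 0.0162). This call was lost without HgCl2 2 h replicate 3 (1.24, adjusted p = 0.0666), without normal replicate 2 (1.2, adjusted p = 0.0717) and without normal replicate 3 (1.23, adjusted p = 0.0537).

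At 8 h after ischemia Txnrd1 was at 0.899, 1.07 and 3.84. Each of these rats was above all normal rats, and rat 3 was far above the other 2. The rise was 2.34 ± 0.34 (5.07-fold, adjusted p = 4.61e-06). Without rat 3 it was 1.69 ± 0.24 (3.22-fold, adjusted p = 3.55e-06).

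Early after ischemia Txnrd1 was at 0.501, 0.373, 0.492 and 0.555, of which 3 were above all 3 normal rats. The difference of 0.64 ± 0.32 was not called (adjusted p = 0.202). With ischemia 8 h rat 3 out of the fit, which narrows the shared spread of this probe, the same difference had an SE of 0.20 and was called (adjusted p = 0.0227, with 22.7% of all probes called), an alternative added after the data were seen. With αMSH the level was 0.45, 0.391 and 0.42, and the difference from normal was 0.46 ± 0.34 (adjusted p = 0.429). In cisplatin, volume-depleted and sham rats Txnrd1 ranged between 0.226 and 0.467, and the differences of 0.33, 0.08 and 0.42 were not called (adjusted p = 1 in each).

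Nqo1 rose in the 2 groups studied 8 h after injury. Its level at HgCl2 8 h was 5.12, 2.66 and 7.48, against 0.993 and 0.766 in normal rats. The treated rats varied widely but all lay above normal, with a rise of 2.42 ± 0.43 (5.36-fold, adjusted p = 0.000393). At 8 h after ischemia it was at 3.45, 3.25 and 1.58, against 0.724, 0.833 and 0.661 in normal rats. All 3 were above normal and rat 3 was the lowest, with a rise of 1.82 ± 0.39 (3.54-fold, adjusted p = 0.000443). Without rat 3 the rise was 2.19 ± 0.41, or 4.55-fold.

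At HgCl2 2 h Nqo1 was at 1.21, 1.47 and 2.43, above all 3 normal rats. The difference of 1.15 ± 0.39 (2.21-fold) missed the threshold (adjusted p = 0.0687). It passed with ischemia 8 h rat 3 out of the fit (adjusted p = 0.0348, with 15% of all probes called).

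At ischemia 2 h Nqo1 was at 0.979, 0.4, 0.832 and 1.08, values on both sides of normal. The difference of 0.06 ± 0.36 (95% interval -0.68 to 0.81) was not called. With αMSH it was at 0.774, 0.927 and 0.765, a difference of 0.15 ± 0.39. Sham rats, at 1.28, 1.45 and 1.41, were just above both normal rats without a call (0.66 ± 0.43, adjusted p = 1). Cisplatin and volume-depleted rats overlapped with normal, with differences of -0.07 ± 0.43 and -0.15 ± 0.36.

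The order of group means for Txnrd1 was ischemia 8 h (2.34 ± 1.1, SD, n = 3), HgCl2 8 h (2.09 ± 0.072), HgCl2 2 h (1.32 ± 0.14) and ischemia 2 h (0.64 ± 0.25, n = 4), with the other groups at 0.46 or below and normal at 0 ± 0.30 (n = 5). The first pair overlapped, HgCl2 8 h lay above HgCl2 2 h, and this lay above ischemia 2 h. For Nqo1 the order was HgCl2 8 h (2.42 ± 0.75), ischemia 8 h (1.82 ± 0.63), HgCl2 2 h (1.15 ± 0.52) and sham (0.66 ± 0.095), in which every neighbour overlapped. Sham lay above ischemia with αMSH (0.15 ± 0.15), and the groups after it overlapped with their neighbours, down to volume depletion (-0.15 ± 0.34, n = 4).

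**Figure D2:**
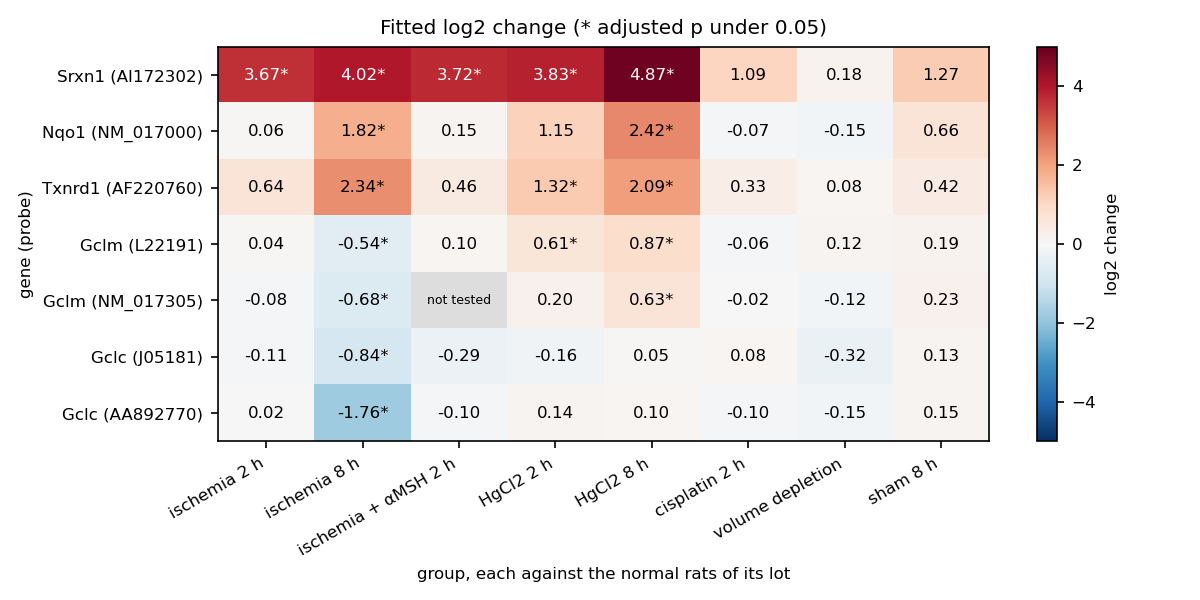
Fitted log2 change of each probe (rows) in each group (columns) against the normal rats of its lot, coloured by size and sign, with an asterisk for an adjusted p under 0.05. Srxn1 was called in 5 groups, from 3.67 to 4.87, and the 4 probes of Gclm and Gclc were lower at ischemia 8 h, from -0.54 to -1.76.

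Gclm, the modifier subunit, was higher 8 h after HgCl2 and lower 8 h after ischemia. Probe L22191 was at 39.6, 36.3 and 43.9 at HgCl2 8 h, against 23.6 and 20 in normal rats. All 3 treated rats were above normal, with a rise of 0.87 ± 0.15 (1.83-fold, adjusted p = 0.000333). Its level at HgCl2 2 h was 31.7, 37.1 and 38.3, against 26.6, 20.9 and 23 in normal rats. The groups were apart, with a rise of 0.61 ± 0.14 (1.52-fold, adjusted p = 0.00654).

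At 8 h after ischemia the same probe read 14, 17.7 and 16.7, below all 3 normal rats. It fell by 0.54 ± 0.14 on the log2 scale, or 1.46-fold (adjusted p = 0.00238). The 4 rats at ischemia 2 h, at 24.3, 20.9, 26.3 and 25, overlapped with normal, and the difference was 0.04 ± 0.13 (95% interval -0.22 to 0.31). Rats given αMSH, at 22.1, 24.9 and 28.4, overlapped too, with a difference of 0.10 ± 0.14. In cisplatin, volume-depleted and sham rats the level ranged between 18.5 and 26.4 and the differences were -0.06, 0.12 and 0.19, none of them called. In the order of groups HgCl2 8 h lay above HgCl2 2 h, this lay above sham, the next 6 groups overlapped with their neighbours, and ischemia 8 h lay below all. The order is of differences from the normal rats of each lot. The HgCl2 groups lie in different lots, and their intensities overlapped (36.3 to 43.9 at 8 h, 31.7 to 38.3 at 2 h). Their difference of 0.27 ± 0.21 was not called.

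The second Gclm probe, NM_017305, followed the first with a Pearson correlation of 0.887 over the 24 rats that had both. At HgCl2 8 h it was at 94.1, 84.8 and 105, against 63.8 and 58 in normal rats, a rise of 0.63 ± 0.14 (adjusted p = 0.0044) that was lost without normal replicate 12 (0.56, adjusted p = 0.0797). At ischemia 8 h it was at 36.4 and 41.4 in the 2 rats measured, against 68.4 and 56.7 in the 2 normal rats, and fell by 0.68 ± 0.15 (adjusted p = 0.00115). Both directions thus appeared on both probes at 8 h. At HgCl2 2 h this probe gave 73.1 and 69.6 and a difference of 0.20 ± 0.15, which was not called (adjusted p = 0.493).

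Gclc, the catalytic subunit, changed in 1 group, the kidneys studied 8 h after ischemia, where it was lower on both probes. Probe J05181 read 53, 49.9 and 80.9, against 141, 82 and 105 in normal rats. Rats 1 and 2 were well below normal and rat 3 was just below the lowest normal rat. It fell by 0.84 ± 0.19 on the log2 scale, or 1.78-fold (adjusted p = 0.00105). Probe AA892770 read 30.8, 29.6 and 7.36, against 59, 64.6 and 68.2 in normal rats. Here all 3 were below normal and rat 3 was by far the lowest, with a fall of 1.76 ± 0.30, or 3.38-fold (adjusted p = 3.72e-05).

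Rat 3 lay above the mean of the other 2 by 0.65 on the log2 scale with J05181, and its difference from that mean was -2.04 with AA892770. Without that rat the 2 probes gave nearly the same change, -1.05 ± 0.19 (2.08-fold lower, adjusted p = 8.48e-05) for J05181 and -1.08 ± 0.13 (2.11-fold lower, adjusted p = 3.52e-07) for AA892770, with 46.4% of all probes called. Over 31 rats the correlation of the 2 Gclc probes was 0.478, and over the 30 rats without it 0.742.

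**Figure D3:**
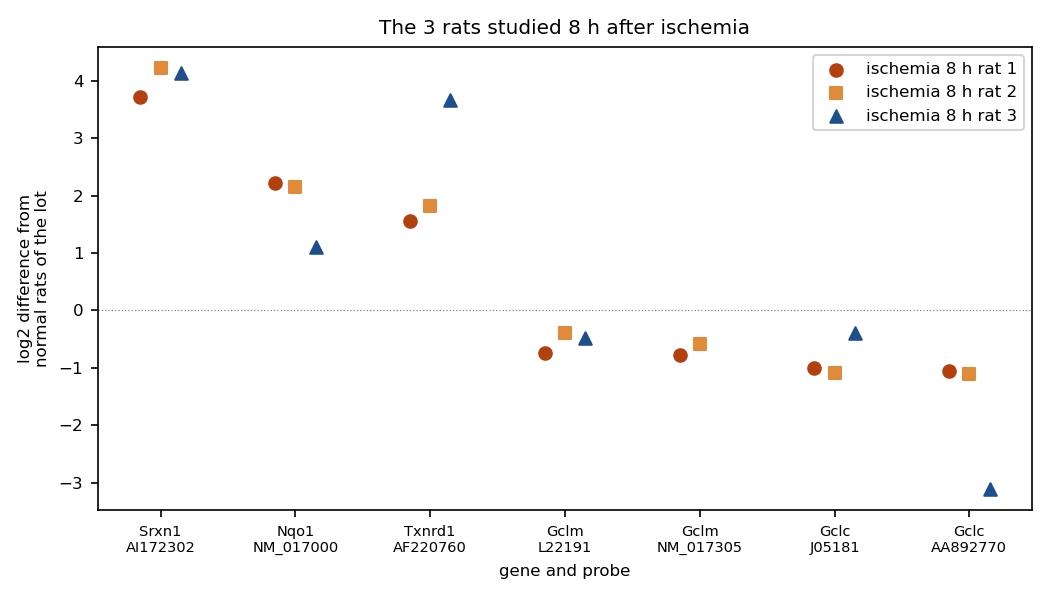
Log2 difference from the normal rats of the lot for each of the 3 rats studied 8 h after ischemia (symbols), by probe. Rat 3 was 1.97 above the mean of the others for Txnrd1, and the difference was -2.04 for the AA892770 probe of Gclc, while the rats were close for Srxn1 and Gclm.

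Elsewhere Gclc was not called. At HgCl2 8 h probe J05181 was at 116, 106 and 127, against 114 and 111 in normal rats, a difference of 0.05 ± 0.22 (95% interval -0.40 to 0.49). Probe AA892770 gave 61.4, 56.2 and 73.7, against 59.6 and 58.2, a difference of 0.10 ± 0.33. Treated and normal rats overlapped on both. At HgCl2 2 h the differences were -0.16 ± 0.19 for J05181 and 0.14 ± 0.30 for AA892770. At ischemia 2 h they were -0.11 ± 0.18 and 0.02 ± 0.28, and with αMSH -0.29 ± 0.19 and -0.10 ± 0.30. The 2 probes read 66.2 to 134 (J05181) and 50 to 71.1 (AA892770) in cisplatin, volume-depleted and sham rats. In the order of groups every neighbour overlapped with J05181, and with AA892770 the one gap lay above ischemia 8 h.

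Counted over the 7 probes, 3 were higher and 4 lower at ischemia 8 h, where 41.7% of all probes were called, and 5 were higher at HgCl2 8 h, where 10.9% were. At HgCl2 2 h 3 were higher, where 7.68% of all probes were called, 3.07% as higher. At ischemia 2 h, with or without αMSH, the Srxn1 probe alone was. In those comparisons 14.7% of all probes were called without αMSH and 13.3% with it, so 1 call among the 7 is near the share of all probes. None of the 7 probes was called by limma in the cisplatin, volume depletion and sham groups, where 0.574%, 0.169% and 0.351% of all probes were. In these groups 576, 565 and 534 of all probes had an unadjusted p under 0.05. The median change of the 7 probes was 0.87 at HgCl2 8 h, 0.61 at HgCl2 2 h, -0.54 at ischemia 8 h and 0.04 at ischemia 2 h. Over all probes tested it was -0.03, -0.05, 0.01 and -0.06 in the same comparisons. In sham rats 5 of the 7 probes did not overlap with the 2 normal rats, where 32.8% of all probes did not.

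Within each rat, the log2 value of Gclc (J05181) was subtracted from that of Gclm (L22191) to ask whether the 2 subunits moved unequally. This difference averaged -1.42 ± 0.22 at HgCl2 2 h and -2.19 ± 0.22 in normal rats of the lot (SD, n = 3 each), a shift of 0.77, or 1.7-fold towards Gclm. The groups did not overlap (exact permutation p = 0.1, two-sided, the smallest that 3 against 3 rats can give). At HgCl2 8 h it averaged -1.55 ± 0.011 (n = 3), against -2.38 ± 0.14 in normal rats (n = 2), a shift of 0.83, or 1.78-fold (exact permutation p = 0.2, again the smallest possible). With AA892770 in place of J05181 the shift was 0.77 at 8 h, without overlap, and 0.47 at 2 h, with overlap. The other Gclm probe, NM_017305, gave shifts at HgCl2 8 h of 0.59 against J05181 and 0.53 against AA892770, both without overlap. At HgCl2 2 h, where 2 treated and 2 normal rats had that probe, its shifts were 0.46 against J05181, without overlap, and 0.04 against AA892770, with overlap, so that the imbalance at 2 h was not seen on every pair of probes.

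In the ischemic groups the shift of L22191 over J05181 was 0.15 at 2 h, 0.39 with αMSH and 0.29 at 8 h, and each group overlapped with normal. Over AA892770 it was 0.02 at ischemia 2 h and 0.20 with αMSH, with overlap, and 1.22 at ischemia 8 h, where all 3 rats lay above normal (exact permutation p = 0.1, two-sided, the smallest possible). Rat 3 held the highest value there, 1.18, with -1.14 in the lowest rat. Without rat 3 the ischemia 8 h shift was 0.51 over AA892770 and 0.48 over J05181, with the other 2 rats above normal on both. The other Gclm probe, NM_017305, was measured in those 2 rats and in 2 normal rats. Its shifts were 0.38 over J05181, with overlap, and 0.35 over AA892770, without overlap. Over J05181 the shift was 0.44 in volume depletion, -0.14 in cisplatin and 0.06 in sham, and over AA892770 it was 0.27, 0.04 and 0.05 in the same groups, all with overlap.

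**Figure D4:**
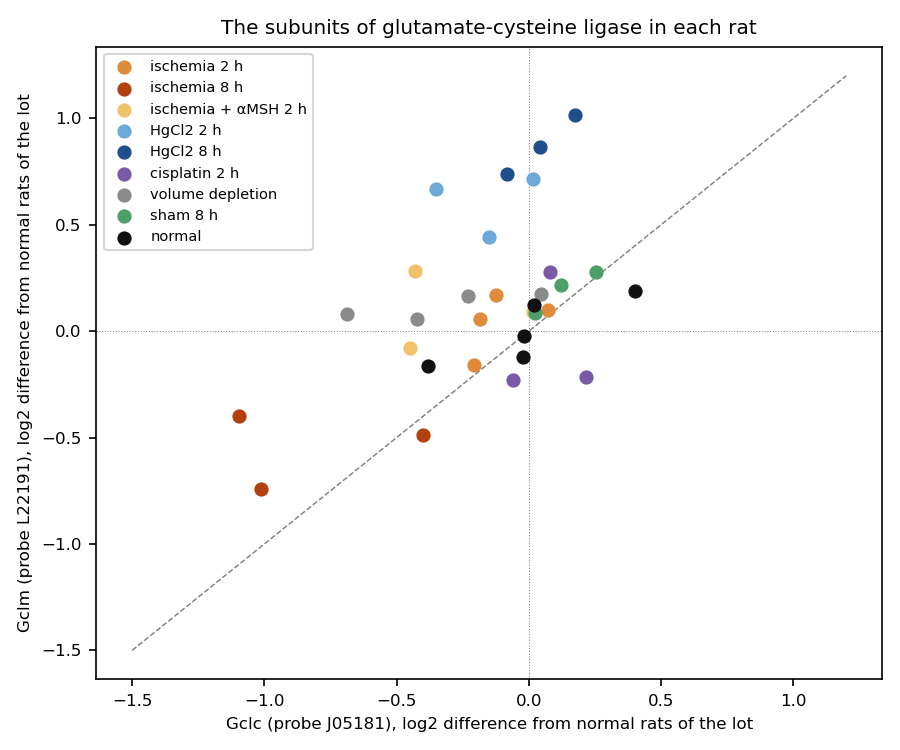
Log2 difference from the normal rats of the lot for Gclm (probe L22191, vertical axis) and Gclc (probe J05181, horizontal axis), with 1 point per rat coloured by group. The dashed line marks equal change. The 6 HgCl2 rats lie above the line with Gclc between -0.35 and 0.17. All rats of ischemia 2 h, αMSH, volume depletion and sham lie above it as well. The 3 ischemia 8 h rats lie low on both axes, and of these only rat 3 lies below the line.

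Ischemic and toxic injury were then compared directly. At 2 h HgCl2 exceeded ischemia for Gclm (L22191, 0.57 ± 0.13, adjusted p = 0.00302) and Nqo1 (1.08 ± 0.36, adjusted p = 0.0434), which made 2 of 7 probes called where 15.1% of all probes were, 6.98% as higher. The Nqo1 call was lost without a filter on low values (adjusted p = 0.0502), with quantile normalization (1.06, adjusted p = 0.0565) and without ischemia 2 h replicate 2 (0.77) or 3 (1.12) or HgCl2 2 h replicate 2 (1.15) or 3 (0.79). Srxn1 differed by 0.15 ± 0.27 (95% interval -0.41 to 0.72, adjusted p = 0.815). Txnrd1 was higher in all 3 HgCl2 rats than in all 4 ischemic rats, and the difference of 0.68 ± 0.32 was not called (adjusted p = 0.167) with all rats in the fit, but was without ischemia 8 h rat 3 (adjusted p = 0.0153, with 22.5% of all probes called).

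At 8 h these groups lay in different lots, so the comparison is between their changes from the normal rats of each lot. HgCl2 exceeded ischemia for both subunits of glutamate-cysteine ligase, making 4 of 7 probes called where 11.8% of all probes were, 5.06% as higher. For Gclm the difference was 1.42 ± 0.21 with L22191 (2.67-fold, adjusted p = 4.95e-05) and 1.32 ± 0.20 with NM_017305 (adjusted p = 0.000286). For Gclc it was 1.86 ± 0.45 with AA892770 (adjusted p = 0.00709) and 0.88 ± 0.29 with J05181 (adjusted p = 0.0479). Without ischemia 8 h replicate 3 the AA892770 difference was 1.18, still called. The J05181 call was lost without any 1 of the 3 HgCl2 8 h rats (0.82 to 0.94), of ischemia 8 h replicates 1 (0.79) and 2 (0.75), or of normal replicates 1 (0.68), 3 (0.89), 11 (0.90) and 12 (0.86). Srxn1 (0.85 ± 0.44, adjusted p = 0.238), Nqo1 (0.60 ± 0.58, adjusted p = 0.591) and Txnrd1 (-0.25 ± 0.51, adjusted p = 0.818) were not called.

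Time after injury was compared within each model. From 2 to 8 h of reperfusion, 6 of the 7 probes changed, 2 up and 4 down, where 37.7% of all probes did, 20.5% up and 17.2% down. Nqo1 (1.76 ± 0.36, 3.38-fold, adjusted p = 0.000412) and Txnrd1 (1.70 ± 0.32, 3.25-fold, adjusted p = 0.000154) were higher at 8 h. The Gclm probes fell by 0.58 ± 0.13 and 0.61 ± 0.15, and the Gclc probes by 0.72 ± 0.18 (J05181) and 1.78 ± 0.28 (AA892770). Without ischemia 8 h replicate 3 the difference was 1.05 for Txnrd1 and -1.10 for Gclc AA892770, both still called. Srxn1 differed by 0.35 ± 0.27 and was not called (adjusted p = 0.322). Between 2 and 8 h of HgCl2 no member was called, where 0.693% of all probes were. These groups lie in different lots, and the differences were 1.04 ± 0.44 for Srxn1, 1.28 ± 0.58 for Nqo1, 0.77 ± 0.51 for Txnrd1 and 0.27 ± 0.21 for Gclm (L22191).

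αMSH made no called difference to the 6 tested probes, and 0% of all 9458 probes were called in that comparison (342 had an unadjusted p under 0.05). The differences from ischemia alone at 2 h were between -0.18 and 0.09. For Srxn1 the difference was 0.05, with a 95% interval of -0.51 to 0.61.

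Sham surgery was the other available control at 8 h. Against it, HgCl2 raised Srxn1 (3.60 ± 0.29, 12.2-fold, adjusted p = 5.31e-09), Nqo1 (1.76 ± 0.39, adjusted p = 0.00259), Txnrd1 (1.67 ± 0.34, adjusted p = 0.00133) and both Gclm probes (0.68 ± 0.14 and 0.41 ± 0.12), which made 5 of 7 called where 13.2% of all probes were, 5.91% as higher. The NM_017305 call (adjusted p = 0.0334) was lost without HgCl2 8 h replicate 1 (0.41) or 3 (0.33) or sham replicate 1 (0.34) or 2 (0.37). The Gclc probes differed by -0.04 and -0.09 and were not called. Ischemia raised Srxn1 (2.76 ± 0.44, 6.76-fold, adjusted p = 5.12e-05) and Txnrd1 (1.92 ± 0.51, adjusted p = 0.00736) above sham. It lowered both Gclm probes (-0.73 ± 0.21 and -0.91 ± 0.20) and both Gclc probes (-0.97 ± 0.29 and -1.90 ± 0.45), so that 6 of 7 were called where 22.9% of all probes were, 11.9% as higher and 11% as lower. Nqo1 was not called there (1.17 ± 0.58, adjusted p = 0.158), though it was without ischemia 8 h replicate 3 (1.53, adjusted p = 0.0463, with 31% of all probes called). The ischemic and sham groups lie in different lots, and without normal replicate 12 the calls of Txnrd1 (1.70), Gclm L22191 (-0.61) and Gclc J05181 (-0.95) were lost, the last also without normal replicate 1 (-0.77). Without ischemia 8 h replicate 3 the differences from sham were 1.26 for Txnrd1 and -1.23 for Gclc AA892770, both still called.

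Of the toxicants at 2 h, HgCl2 exceeded cisplatin for Srxn1 (2.74 ± 0.44, 6.68-fold, adjusted p = 0.00113), the 1 probe of 7 called where 0.949% of all probes were, 0.362% as higher. Ischemia exceeded cisplatin for Srxn1 as well (2.59 ± 0.42, adjusted p = 0.000643, with 2.21% of all probes called, 1.52% as higher). The doses and routes of the 2 toxicants differed, as did the lots. Gclm (L22191) was not called between HgCl2 and cisplatin (0.66 ± 0.21, adjusted p = 0.157), but was without cisplatin replicate 1 (0.83, adjusted p = 0.0223), with quantile normalization (0.83) and with no lot term (0.77), and Txnrd1 (0.99 ± 0.51, adjusted p = 0.475) was with no lot term (1.26).

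Cell type markers also differed in the same kidneys. Their values at ischemia 8 h include rat 3, whose array differed from the others. At ischemia 8 h, where 41.7% of all probes were called, 7 of 9 tested proximal tubule markers were lower. The level of that list, summed over up to 10 genes, was 137 to 217, against 284 to 373 in normal rats. In the later nephron (loop of Henle to collecting duct) 5 of 6 markers were lower. The sums there were 40.5 to 59.5, against 87.2 to 134. Each sum leaves out genes without a value in that rat, so sums may cover unlike sets of genes. In all of these sums the brightest genes weigh most. Tubular injury markers were higher, 5 of 5 (71.6 to 145, against 14.9 to 25.2). Of 8 leukocyte markers 3 were called, all higher, a share near that of all probes, and their sums overlapped (54 to 75.8, against 49.7 to 68.5). The 3, with their log2 changes, were S100a9 (5.02), Cd14 (2.00) and C1qb (1.83), while Ptprc (-0.30), Cd74 (-0.45) and Lyz2 (-0.01) were not called.

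At HgCl2 8 h, where 10.9% of all probes were called, 4 of 9 proximal tubule markers were lower (142 to 174, against 267 to 279 in normal rats of that lot). None of 6 later nephron markers was called (91.4 to 115, against 92.9 to 108). There 3 of 5 injury markers (30.1 to 39.7, against 17.9 to 22.4) and 2 of 8 leukocyte markers (44.5 to 74.8, against 39.5 to 42.4) were higher. The 2 leukocyte markers were S100a9 (3.53) and C1qb (0.96), and the others were not called. S100a9 was also called in sham rats, set against the same normal rats (2.47, adjusted p = 0.0277 by limma). None of the injury and leukocyte markers was at the floor in any normal rat.

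At 2 h the proximal tubule sum was 250 to 268 after ischemia and 217 to 222 after HgCl2, against 284 to 373 in normal rats, with 0 and 1 of 9 markers lower. Of all probes 14.7% were called at ischemia 2 h and 7.68% at HgCl2 2 h. The later nephron sum was 89.6 to 120 after ischemia and 128 to 146 after HgCl2, against 87.2 to 134, with no marker called. Injury markers were higher at ischemia 2 h, 3 of 5 (25.1 to 37.3, against 14.9 to 25.2), and 0 of 5 were called at HgCl2 2 h (26 to 39.1). Of 8 leukocyte markers 2 were higher at ischemia 2 h (S100a9 3.53, Cd14 1.21) and 2 lower (Ptprc -0.72, Csf1r -0.54). At HgCl2 2 h 1 was higher (S100a9, 2.35) and 1 lower (Itgam, -0.45). The leukocyte sums of both groups overlapped with normal. The red cell gene Alas2 was higher at ischemia 2 h by 2.49 (1.13 to 2.69, against 0.184 to 0.578) and at ischemia 8 h by 1.92 (0.979 to 1.42). It was also higher with αMSH by 2.27 and at HgCl2 8 h by 1.77 (0.907 to 1.31, against 0.279 to 0.345). In the remaining groups Alas2 was not called. The part of these cell types in the changes of the members was not tested, and in such bulk samples fewer cells of a type and less RNA per cell cannot be told apart.

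The other genes of the Nrf2 pathway were read from a list of 90, of which 55 were on the array. Each gene was read from its brightest probe alone, and its values at ischemia 8 h include rat 3, whose array differed from the others. The shares of all probes given beside the list count every tested probe, dim and unnamed ones included, so the 2 are not like sets. Against normal rats 12 of 54 tested were higher and 2 lower at HgCl2 8 h, 6 of 55 higher and 3 lower at HgCl2 2 h, 9 higher and 11 lower at ischemia 8 h, and 4 higher and 1 lower at ischemia 2 h. With αMSH 2 were higher and 2 lower, with cisplatin 1 and 1, and in volume-depleted and sham rats none was called. The share of the list called was 25.9% at HgCl2 8 h and 16.4% at HgCl2 2 h, above the 10.9% and 7.68% of all probes. It was 36.4% at ischemia 8 h, 9.09% at ischemia 2 h and 7.27% with αMSH, below the 41.7%, 14.7% and 13.3% of all probes. With cisplatin it was 3.70%, where 0.574% of all probes were called. The median change of the list was 0.22 at HgCl2 8 h, 0.06 at HgCl2 2 h, -0.03 at ischemia 8 h and -0.06 at ischemia 2 h.

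Among the regulators, Nfe2l2 rose at ischemia 2 h (0.38 ± 0.13, 1.3-fold, adjusted p = 0.0442) and was not called in the other 7 groups, with differences of 0.05 to 0.34. Bach1, a repressor that competes for the same elements, was lower at ischemia 8 h (-0.98 ± 0.28, adjusted p = 0.00551). Keap1 is not analysed here.

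Hmox1, which encodes the heme-degrading enzyme heme oxygenase 1 and is repressed by Bach1, rose by 6.90 ± 0.33 at HgCl2 8 h (120-fold) and 6.54 ± 0.29 at HgCl2 2 h (93.1-fold), by 5.13 ± 0.29 at ischemia 8 h, by 3.41 ± 0.28 at ischemia 2 h and by 3.73 ± 0.29 with αMSH. In cisplatin rats, where no member was called, it rose by 1.52 ± 0.33 (adjusted p = 0.0274). Sham rats, set against the same normal rats, had a similar Hmox1 difference of 1.40 ± 0.33, without a call (adjusted p = 0.0629).

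In the glutathione group, Chac1, which breaks glutathione down and is also known as a target of the integrated stress response, rose in all 5 groups in which Srxn1 did, by 3.15 to 5.91. At ischemia 8 h the glutathione peroxidase Gpx2 was higher (3.17 ± 0.59), while the glutathione transferases Gsta1 (-1 ± 0.18) and Gstt2 (-1.70 ± 0.31) were lower along with Gclc and Gclm. Gsta1 was also lower at HgCl2 2 h (-0.63 ± 0.18, adjusted p = 0.0293), where Gstt2 was at -0.80 without a call. Neither transferase was called at HgCl2 8 h (-0.11 and -0.70). In the thioredoxin group Sesn1, a sestrin better known as a p53 target, was lower in 6 of the 8 groups, by -0.45 to -1.74.

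Me1, the malic enzyme and a source of NADPH, an electron donor of Txnrd1 and Nqo1, was lower at ischemia 8 h (-0.68 ± 0.18). Of the detoxification genes, the aldo-keto reductase Akr1b8 rose at HgCl2 2 h (3.49 ± 1.00), HgCl2 8 h (4.97 ± 1.12) and ischemia 8 h (4.85 ± 1.00), the 3 groups in which Txnrd1 rose. The glucuronosyltransferase probe named Ugt2b7 rose in the same 3 groups, by 2.75, 5.80 and 2.72, and the epoxide hydrolase Ephx1 at HgCl2 8 h (2.03 ± 0.32). Reductases and transferases of this kind belong to families of similar genes, and how far a probe also reads its relatives was not tested.

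**Figure D5:**
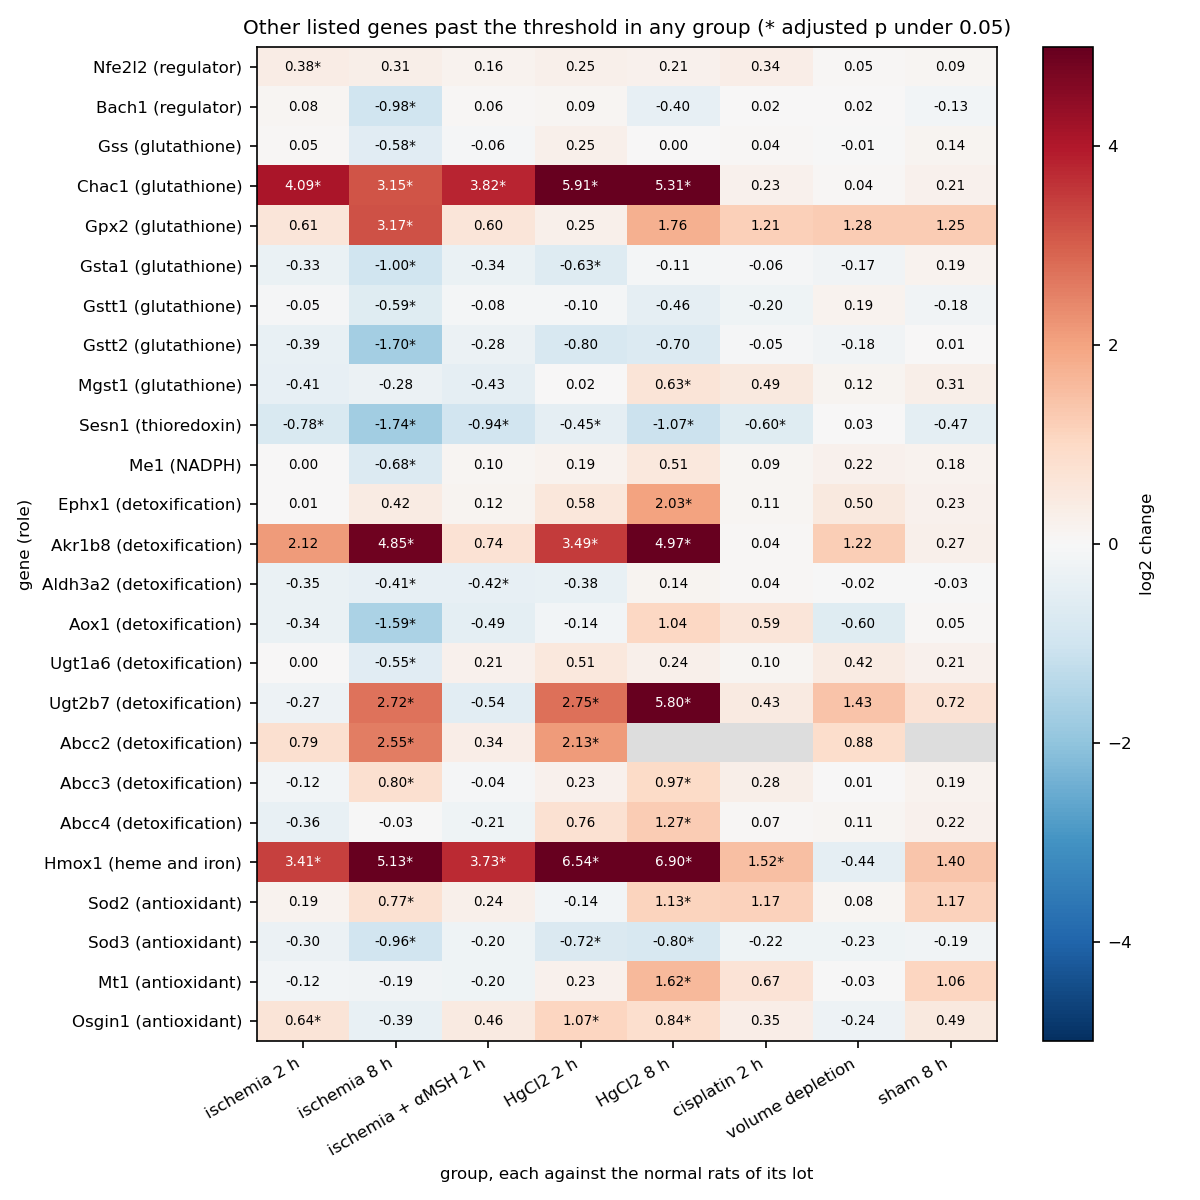
Log2 change against the normal rats of the lot for listed pathway genes called in at least 1 group (rows) in the 8 groups (columns), with an asterisk for an adjusted p under 0.05 and grey where not tested. Hmox1 and Chac1 were called in every group with ischemia or HgCl2, and the cisplatin column has 2 calls, Hmox1 and Sesn1.

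The rats form separate groups, so a correlation over all 31 mostly follows the group means and is given as a description. Of 6807 probes with a gene name that were measured in all rats, the closest in pattern to Srxn1 over the 31 rats were Hspa1a (r = 0.954), Mthfd2 (0.947) and Hmox1 (0.931). Those closest to Nqo1 were B3gnt2 (0.88), Nploc4 (0.821) and Nif3l1 (0.808), and to Txnrd1 Nploc4 (0.954), Prkci (0.933) and Ppan (0.927). For Gclm (L22191) they were Trak2 (0.795), Akr7a3 (0.795) and Prr5 (0.792). For Gclc they were Mapt (0.859), Ldhb (0.845) and Nnt (0.844) with J05181, and Ubl3 (0.942), Acss2 (0.941) and Psat1 (0.931) with AA892770, 3 values that were 0.767, 0.812 and 0.72 without ischemia 8 h rat 3.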

How the data were processed

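Kidney RNA was measured in 31 rats on 36 arrays, 5 rats having 2 arrays of separately processed RNA. Labelling with biotin followed the CodeLink standard protocol per the labels' protocols. For the scanner software, background correction and scaling no source used here says anything. The deposited unit is recorded as "other": read from the values, each value the authors deposited is 2 to the power of an intensity already divided by about the median of its array. Its log2 was therefore taken as a linear intensity (highest 322.7), and a deposited 0.5 was treated as missing (0.969% of values). The column of sham rat 3 correlated with the median array at 0.0652 as deposited and at 0.984 once moved by 2 lines. The moved values were used, a choice made after seeing the data.

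Each intensity was divided by its array median, raised to at least 0.1 and brought to log2, and the 2 arrays of a rat were averaged. The labels do not assign arrays to lots. Normal rats 11 and 12 were taken as lot 2, and the profiles of sham, cisplatin and HgCl2 8 h arrays resembled theirs (scores of 0.239 to 0.421, against -0.503 to -0.096 in the other treated arrays), which gave 24 and 12 arrays, as the series' description has it. That description names 3 normal rats per lot and the labels give 3 and 2. Normal rats of the lots differed by -0.27 to 0.24 on the members.

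All rats were fitted together with limma 3.58.1 (R 4.3.3, statmod 1.5.0) with 1 mean per group and per normal lot and 21 residual degrees of freedom, and Benjamini-Hochberg adjustment ran over all probes tested in each comparison (8 with normal rats and 9 between treated groups). A probe was tested with at least 2 rats measured in each group, 66.7% of all rats measured and at least 3 rats above the floor. The number of rats limits the precision. Replicate numbers do not pair the rats: same-numbered rats of different groups correlated at a median of 0.02, and others at 0. Exact permutation tests over rats cannot go below 0.0571 (4 against 3), 0.1 (3 against 3) or 0.2 (3 against 2).

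Probes were named from the array annotation and RefSeq (GRCr8), with 7229 of 9911 having 1 symbol, 21 several and 2661 none. Every probe of the members is given, whereas the other pathway genes and the cell type markers were each read from the probe with the highest mean level. Of the other pathway genes, up to 3 per role and comparison were eligible for naming by size of change, along with Hmox1, Nfe2l2 and Keap1, and like genes are the 3 with the highest Pearson correlation. A listed gene that is counted among the others is not reported here by name. The members and lists were chosen with earlier results of these data known. The steps were tested on simulated data. Alternatives covered scaling, floor, filter, lot term, duplicate arrays, sham rat 3, prior, replicate block and single rats.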

Additional observations from a re-analysis of the deposited data

Results flagged for a closer look

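The change between 2 and 8 h of reperfusion differed from 0 by limma's test for 6 of the 7 probes, where it did for 37.7% of all probes. This is a test of the difference between both ischemia groups' changes from the same normal rats. The log2 difference, ischemia 8 h minus ischemia 2 h, was 1.76 for Nqo1 and 1.70 for Txnrd1. It was -0.58 for Gclm with L22191 and -0.61 with NM_017305, and for Gclc -1.78 with AA892770 and -0.72 with J05181. Without ischemia 8 h replicate 3, Gclc with AA892770 was at -1.10 and Txnrd1 at 1.05. No rat stood apart by Dixon's 95% criterion in 20 sets of 4 or 5 rats, each of a single probe and group. The groups were ischemia 2 h, volume depletion and normal, the last with both lots together. Groups of 3 rats, ischemia 8 h among them, were not tested.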

How the results depend on the processing

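Of 704 values of the members against normal rats under the alternatives that kept all rats or took out a fixed one, 689 kept their direction and their side of the threshold, 9 were no longer called, 6 became called and none turned. Between treated groups 713 of 748 kept both.

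With sham rat 3 in the deposited order, the following values had larger standard errors and were no longer called: against normal, ischemia 8 h Gclm L22191 -0.54 and Gclc -1.76 and -0.84, HgCl2 2 h Gclm 0.61 and Txnrd1 1.32, HgCl2 8 h Nqo1 2.42, Gclm 0.87 and 0.63, and Txnrd1 2.09. The same happened between HgCl2 and ischemia at 2 h to Nqo1 (1.08) and Gclm (0.57), at 8 h to Gclm L22191 (1.42) and Gclc (1.86, 0.88), between 8 and 2 h of ischemia to Nqo1 (1.76), Gclm (-0.58, -0.61), Gclc (-1.78, -0.72) and Txnrd1 (1.70), and against cisplatin to Srxn1 (HgCl2 2 h 2.74, ischemia 2 h 2.59). Against sham, ischemia 8 h lost Gclm NM_017305 (-0.59) and Txnrd1 (0.62) and turned for Gclm L22191 (1.52) and Gclc (AA892770 0.56, J05181 2.50), while HgCl2 8 h lost Nqo1 (0.68), Gclm L22191 (2.94) and Txnrd1 (0.38).

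With no lot term, Nqo1 at HgCl2 2 h (1.05), Srxn1 with cisplatin (0.95) and sham (1.13), Srxn1 (0.82), Nqo1 (1.52) and Gclm NM_017305 (0.40) between 8 and 2 h of HgCl2, and Gclm L22191 (0.77) and Txnrd1 (1.26) between HgCl2 2 h and cisplatin became called. Quantile normalization called Gclm NM_017305 at HgCl2 2 h against normal (0.34) and ischemia (0.34) and Gclm L22191 against cisplatin (0.83), and lost Nqo1 between HgCl2 and ischemia at 2 h (1.06). That call was also lost with no filter (1.08) and without sham rat 3 (1.08), and Gclc J05181 between HgCl2 and ischemia at 8 h (0.88) with a floor of 0.05, with first arrays alone and without sham rat 3. With ischemia 8 h rat 3 out of the fit, added after seeing the data, Txnrd1 at ischemia 2 h (0.64), Nqo1 at HgCl2 2 h (1.15) and Txnrd1 between HgCl2 and ischemia at 2 h (0.68) became called. The cause of these changes was not tested.

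Leaving out single rats changed calls for Txnrd1 (1.2 to 1.53) at HgCl2 2 h and Gclm NM_017305 (0.55 to 0.71) at HgCl2 8 h against normal. Between treated groups it did so for Nqo1 (0.77 to 1.3) and Gclc J05181 (0.68 to 1.1) between HgCl2 and ischemia at 2 and 8 h, for Gclm NM_017305 (0.33 to 0.51) between HgCl2 8 h and sham, and for Gclc J05181 (-1.19 to -0.77), Gclm L22191 (-0.86 to -0.61), Txnrd1 (1.26 to 2.31) and Nqo1 (0.96 to 1.53) between ischemia 8 h and sham. For Gclm L22191 between HgCl2 2 h and cisplatin it ran between 0.54 and 0.83. With replicate number as a random replicate block (consensus correlation -0.0179), Srxn1 at ischemia 2 h was 3.67, and no call of a member changed.

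Counts of all probes called moved by over 1.5 times in 44 of 150 cases against normal and 33 of 192 between treated groups. With sham rat 3 as deposited they were 300 at ischemia 2 h (1395 with it moved), 1307 at ischemia 8 h (3947), 63 at HgCl2 2 h (727) and 153 at HgCl2 8 h (1029). With no lot term they were 2145 at HgCl2 8 h, 508 with cisplatin (54), 41 with volume depletion (16) and 250 in sham (33). Without ischemia 8 h rat 3 they were 2128 at ischemia 2 h, 1408 at HgCl2 2 h and 1663 at HgCl2 8 h. The Txnrd1 probe was dim but above the floor in every rat, and the number of rats, 2 or 3 in most groups, limits the precision.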
